A study of Homo sapiens with 3 samples.

Results

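The endothelin and angiotensin systems are peptide hormone systems that act on vessels and heart muscle. Here their genes were followed in promoter capture Hi-C (PCHi-C), which ligates DNA fragments that lie close together in the nucleus and enriches the products for fragments carrying a promoter. The genes were *EDN1*, *EDN2* and *EDN3*, which encode the endothelin peptides, *ECE1*, which encodes the protease that cuts their precursors, *EDNRA* and *EDNRB*, the endothelin receptors, *AGT*, *ACE* and *AGTR1*, which encode the angiotensin precursor, the angiotensin-converting enzyme and an angiotensin receptor, and *PHACTR1*, the next protein-coding gene downstream of *EDN1*. A member's promoter fragment was a HindIII fragment listed as the captured end of a call that holds an annotated transcript start of the gene. Of the 10 genes, 8 had at least 1 such fragment, 9 fragments in all, among 25447 genes and 19075 promoter fragments of the whole data set.

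The samples were 3 biological replicates of hESC-CMs, heart muscle cells made in culture from WA09 (H9), a human embryonic stem cell line, and enriched for 6 days in medium with 4 mM lactate and no glucose. They come from 1 line, and the labels give a purity of at least 80 to 90% by cardiomyocyte markers. There was 1 condition, so no groups were compared. An interaction joins 2 HindIII fragments and carries a CHiCAGO score, which rises with the excess of read pairs over a background set by distance and technical noise. Scores under 5 are not listed, so a contact missing from a replicate may lie just under that value. Because DNA contacts give no expression level, the cell type could not be checked on marker genes in these data.

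Endothelin-1 binds the receptors encoded by *EDNRA* and *EDNRB*, and in the embryo signalling through *EDNRA* shapes neural crest derivatives of the face and outflow tract. Angiotensin II, whose last processing step is carried out by *ACE*, raises blood pressure through the *AGTR1* receptor. Regulatory DNA can lie far along the chromosome from the promoter it acts on, and a contact between fragments places them near each other without showing that either acts on the other.

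The 9 promoter fragments had 94 interactions in the union of the replicates, 61 in replicate 1, 59 in replicate 2 and 65 in replicate 3. All 3 replicates called 35 of them (37.2%, 95% Wilson interval 28.1 to 47.3%), against 24.0% of the 200587 interactions of all promoter fragments. The interval covers counting error only and treats contacts as independent. Many contacts were nearby fragments of the same promoter, 32 of them in 1 *EDNRA* block, so it may be too narrow. The same holds for the intervals of single genes below. *EDNRA* and *EDN1* together had 68 interactions and 33 of those in all 3 replicates. The remaining promoter fragments had 26, of which 2 (7.69%) were called in all 3. A promoter fragment of the whole data set had a median of 6 interactions. At least 1 interaction in all 3 replicates was found for *EDNRA*, *EDN1*, *ECE1* and *AGTR1*, 4 of the 8 genes, and for 51.9% of all promoter fragments. Member interactions had a median distance of 377 kb, against 716 kb for all interactions and 395 kb for those called in all 3 replicates. The members differed, and 43 of the 94 interactions were those of *EDNRA*, with a median of 349 kb. The median was 318 kb for *AGTR1*, 634 kb for *EDN1*, 676 kb for *EDN3* and 814 kb for *ACE*. It was 209 and 629 kb for the *ECE1* fragments and 101105 kb for *PHACTR1*. The 10 interactions over more than 2 Mb and the 1 between chromosomes were each absent from the set called in all 3. No member's promoter fragment was called with that of another member gene.

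**Figure D1:**
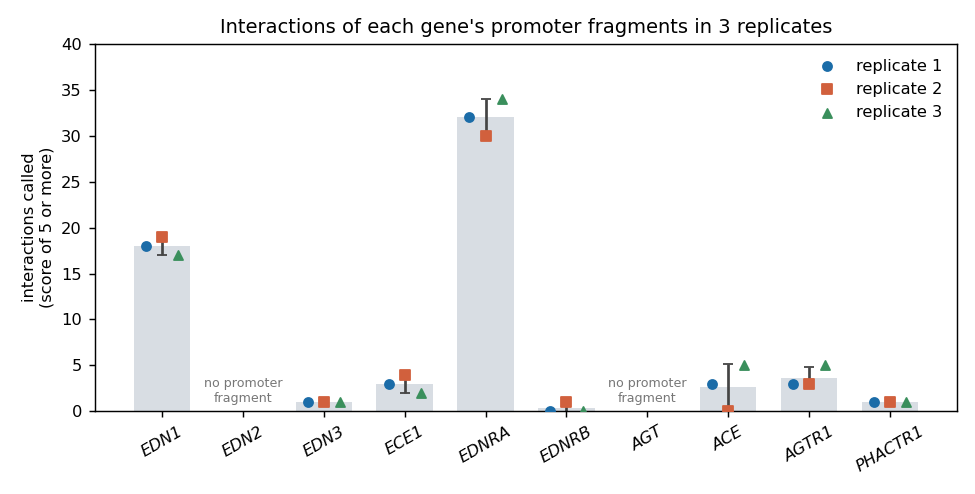
Number of interactions called for each gene's promoter fragments (y axis, interactions with a score of 5 or more) in replicates 1 to 3 (points); grey bars are the mean and error bars the SD over the 3 replicates. *EDNRA* has 30 to 34 interactions and *EDN1* 17 to 19, no other gene has more than 5 in a replicate, and *EDN2* and *AGT* have no promoter fragment in the calls of the replicates.

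Among the ligand genes, *EDN1* had 25 interactions and *EDN3* had 2, and *EDN2* had no promoter fragment in the replicates. The *EDN1* promoter fragment on chromosome 6, from 12287641 to 12292195 in GRCh37, had 25 interactions, with 18, 19 and 17 in replicates 1, 2 and 3, and 10 of the 25 (40%, 95% Wilson interval 23.4 to 59.3%) were called in all 3. As many interactions or more were found for 11.5% of all promoter fragments, and as many in all 3 replicates for 8.29%. Among the 3083 promoter fragments with at least 20 interactions, the median share in all 3 replicates was 29.7%. A share as high as that of *EDN1* was found for 32.5% of these. The contacts fell into 4 blocks, runs of fragments with gaps of at most 20 kb, of which 3 lay upstream and 1 downstream.

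The *EDN1* contact with the highest scores lay in the block from -646 to -627 kb, where negative distances are upstream of the promoter fragment. All 7 HindIII fragments of that block were called and 6 of the 7 contacts were in all 3 replicates. Its leading fragment, on chromosome 6 from 11655379 to 11656245, lies in no annotated gene and scored 25.28, 26.96 and 21.55 in replicates 1, 2 and 3, or 24.6 ± 2.77 (SD, n = 3). Of all interactions called in 3 replicates, 3.61% had as high a mean score. The neighbouring fragment, from 11652190 to 11655378, scored 11.91, 17.25 and 15.63. In each replicate the leading fragment was therefore above its neighbour, with no overlap between their values.

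The farthest block ran from -712 to -674 kb and began at *TMEM170B*, a protein-coding gene with 3 of the 7 called fragments overlapping its exons. Of these 7 contacts, 3 were in all 3 replicates. The fragment from 11583751 to 11585590, which overlaps only the last bases of *TMEM170B* (the gene ends at 11583757), led with 16.1, 15.68 and 14.2. Next to it lies the fragment from 11585591 to 11593534, which the study lists for the heart enhancer mm192, and it scored 7.92, 7.24 and 6.33 (7.16 ± 0.798, SD, n = 3) over 700 kb. The mm192 fragment thus ranked 8 of the 25 contacts by summed score, below the adjoining leading fragment of this block in every replicate. No promoter fragment other than that of *EDN1* was called with the mm192 fragment.

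The block nearest on the upstream side, from -604 to -579 kb, had 5 contacts and none in all 3 replicates. Downstream, 6 contacts lay between 303 and 323 kb, in no protein-coding gene, and 1 of them was called in all 3 replicates. That fragment, from 12595438 to 12602160, scored 8.98, 8.32 and 8.51. The upstream contacts passed over *ADTRP*, which encodes a membrane lipid hydrolase, and *HIVEP1*, which encodes a zinc finger transcription factor, and none of the 25 ended in either gene.

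The fragment with the highest scores for *EDN1* is shown with the part of its sequence that matched the core of the CTCF motif. It was searched because CTCF binds at many loop anchors. The search covered both strands with no mismatch allowed, and the match was on the plus strand (GRCh37, plus strand, chr6:11655943-11656034, the match in capitals). Among called fragments within 10% of its length, 27 of 5597 (0.482%) held such a match. A match of letters does not show that the protein binds there.
EDN1 contact at -634 kb: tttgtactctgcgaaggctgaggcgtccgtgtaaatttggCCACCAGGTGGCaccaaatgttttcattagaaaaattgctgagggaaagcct

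The other end of these contacts is the whole promoter fragment of 4555 bp. It holds, letter for letter, the RefSeq promoter of *EDN1* around the same start as the GENCODE annotation (GRCh38, plus strand, chr6:12290111-12290410). Capitals mark TTATCT, the reverse complement of the GATA word AGATAA, which was searched on both strands and was found in 10.3% of the 35116 RefSeq promoters of 300 bases. The other RefSeq promoters of *EDN1* inside the fragment, not shown, held neither word.
EDN1 promoter: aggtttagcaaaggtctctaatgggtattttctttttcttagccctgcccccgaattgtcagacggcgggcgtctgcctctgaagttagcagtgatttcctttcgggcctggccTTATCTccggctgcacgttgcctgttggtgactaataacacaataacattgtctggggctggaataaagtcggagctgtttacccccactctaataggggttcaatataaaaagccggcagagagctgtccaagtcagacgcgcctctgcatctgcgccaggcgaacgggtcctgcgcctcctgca

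*EDN1* shared more interacting fragments with *HIVEP1* than with any other promoter, 10 of its 25, which are also 10 of the 20 of *HIVEP1* (Jaccard index 0.286). Both promoters had the same leading fragment, which scored 21.49, 19.3 and 18.93 with *HIVEP1*. The fragments on either side of it were also called with both promoters in all 3 replicates, at 9.34, 10.52 and 10.43 with *EDN1* and 10.11, 11.46 and 11.01 with *HIVEP1* at -630 kb. The profiles differed in the blocks on either side of the one that holds this fragment. In the block from -604 to -579 kb, *HIVEP1* had 10 contacts and all 10 were called in every replicate, with summed scores of 113, 104 and 101, where *EDN1* had 1, 3 and 3 calls and sums of 6.58, 19.87 and 17.98. In the block from -712 to -674 kb, *EDN1* had 6, 5 and 5 calls and *HIVEP1* had none in any replicate. The distances differ, since *HIVEP1* lies 281 kb nearer to all of these blocks. The promoter fragments of *EDN1* and *HIVEP1* were not called with each other. The next most alike promoter was that of *TBC1D7*, with 2 shared fragments.

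**Figure D2:**
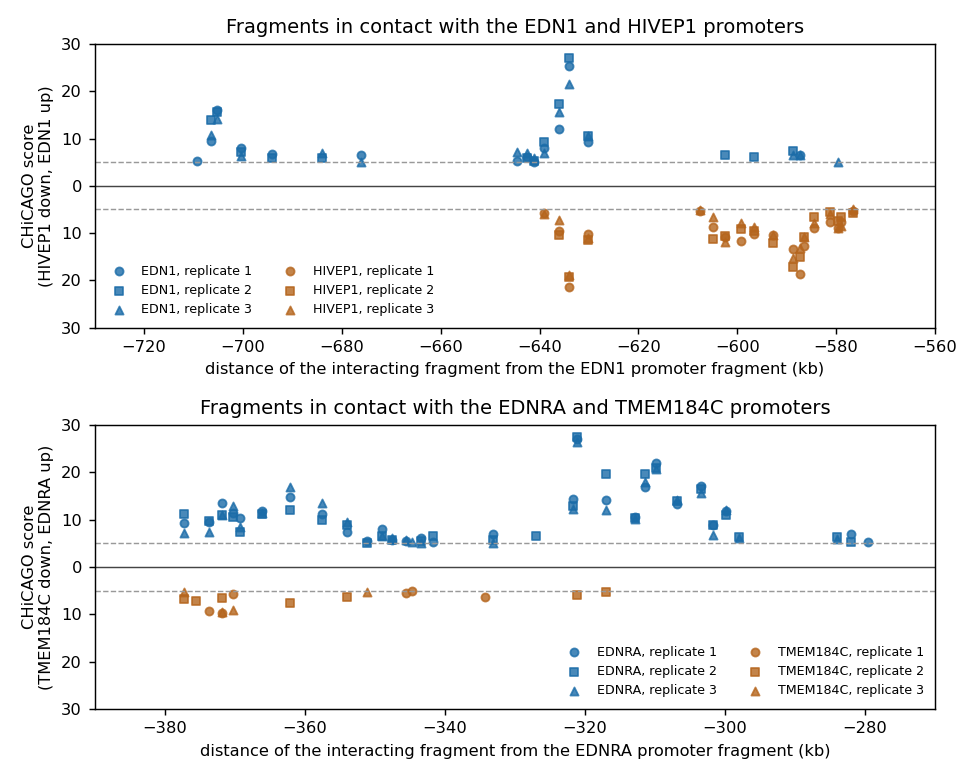
CHiCAGO scores of fragments in contact with a member promoter (upward) and with the promoter of the neighbouring gene that shared the most of its fragments (downward), against distance from the member's promoter fragment in kb; point shapes are the 3 replicates and dashed lines the score of 5. *EDN1* and *HIVEP1* have the same leading fragment at -634 kb and share the fragments beside it, the block from -712 to -674 kb was called for *EDN1* alone of this pair, and *TMEM184C* contacts lie mostly in the far part of the *EDNRA* block with scores under 10.

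*EDN3*, whose peptide acts mainly through *EDNRB* in neural crest cells, had 2 interactions from 1 promoter fragment and none in all 3 replicates. A fragment holding the start of *VAPB*, 909 kb upstream, scored 9.88 in replicate 2 and 8.29 in replicate 3 and was not called in replicate 1. A fragment over an exon of *GNAS* scored 5.97 in replicate 1 only. Both fragments were also called with *ANKRD60* and with *CTCFL*. For *EDN2*, none of the 3 annotated starts fell in a promoter fragment of a replicate. In the calls on the merged replicates, 1 interaction of the fragment that holds its start was listed, with a score of 5.12. Which end of that call was the captured one was not examined, and for *AGT* no fragment at a start was listed. Whether the fragments at the starts of *EDN2* and *AGT* were captured is thus not known here. The lack of calls for these genes in the replicates is not a measured lack of contacts.

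The converting enzyme gene *ECE1* has 2 promoter fragments, from 21619617 to 21627645 and from 21670022 to 21674589 on chromosome 1, which hold alternative starts of the gene. These were called with each other over 48.7 kb at scores of 7.33, 7.62 and 9.26, or 8.07 ± 1.04 (SD, n = 3). This was the 1 contact of *ECE1* in all 3 replicates among 6 interactions, and the 1 contact between member promoter fragments. The other 5 included a fragment inside the gene, scored 6.23 and 5.2 in replicates 1 and 2, and single-replicate contacts at *KIF17* and *RAP1GAP*. On the merged replicates 5 further fragments inside *ECE1* were called with scores of 5.77 to 6.61.

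*EDNRA* had the most contacts of the 10 genes. Its promoter fragment, on chromosome 4 from 148401812 to 148404235, had 43 interactions, with 32, 30 and 34 in replicates 1, 2 and 3, and 23 (53.5%, 95% Wilson interval 38.9 to 67.5%) were in all 3. As many interactions were found for 3.68% of promoter fragments and as many in all 3 replicates for 1.72%. Among promoter fragments with at least 20 interactions, 13.9% had as high a share in all 3 replicates as *EDNRA*, and the median share was 29.7%. *EDNRA* exceeded *EDN1* by 14, 11 and 17 interactions in the 3 replicates (14 ± 3, SD, n = 3). The difference from *AGTR1*, which had the next highest mean, was 29, 27 and 29 (28.3 ± 1.15). The order *EDNRA*, *EDN1* and then the rest was the same in every replicate, whereas *AGTR1*, *ECE1* and *ACE* changed places between replicates. With 3 replicates an exact two-sided sign-flip test cannot go below 0.25, so no p is given.

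The 23 *EDNRA* contacts in all 3 replicates lay in 1 block from -378 to -279 kb, chromosome 4 from 148024968 to 148124339. The block held 32 contacts among its 46 HindIII fragments, and the 14 fragments without a call were shorter, with a median of 664 bp against 1856 bp. It held 74.4% of the *EDNRA* interactions, against 28% for the fullest block of *EDN1*. Among 3083 promoter fragments with at least 20 interactions the median was 47.4%, and 16.2% had a share as high as that of *EDNRA* and 81.0% one as high as that of *EDN1*. Joining contacts across gaps of up to 50 kb brought *EDN1* to 76%, since its 3 upstream blocks then became 1, and left *EDNRA* at 74.4%. The order also depended on the score, with 95.7% for *EDNRA* and 50% for *EDN1* at scores of at least 7 but 52.9% and 60% at scores of at least 10, where *EDN1* had 5 contacts.

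Within the block the scores formed a far and a near group of fragments. In the near group the fragment from 148081550 to 148082291 scored 27, 27.6 and 26.43, the one from 148092638 to 148093787 scored 21.99, 20.93 and 20.83, and the one from 148090687 to 148092637 scored 17.01, 19.58 and 18.02. The ranges of these 3 over the replicates did not overlap. Next in line lies the fragment listed for the heart enhancer mm172, which ranked 7 with 13.32, 13.91 and 14.22, below the fragments on both of its sides. For *EDN1* the mm192 fragment scored below its neighbour at the end of *TMEM170B* but above the one on its other side. That one had 6.75 and 5.8 in replicates 1 and 2 and was not called in replicate 3. The far group lay in the lncRNA gene ENSG00000286371 and peaked at the fragment from 148038730 to 148043029, with 14.73, 12.1 and 16.87. Between -351 and -342 kb the scores were lower, from 5.11 to 7.96, and 4 of the 7 fragments called there were missing from at least 1 replicate. Over the 23 contacts the median SD between replicates was 1.03, at a median mean score of 11.5, and the largest was 3.91.

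**Figure D3:**
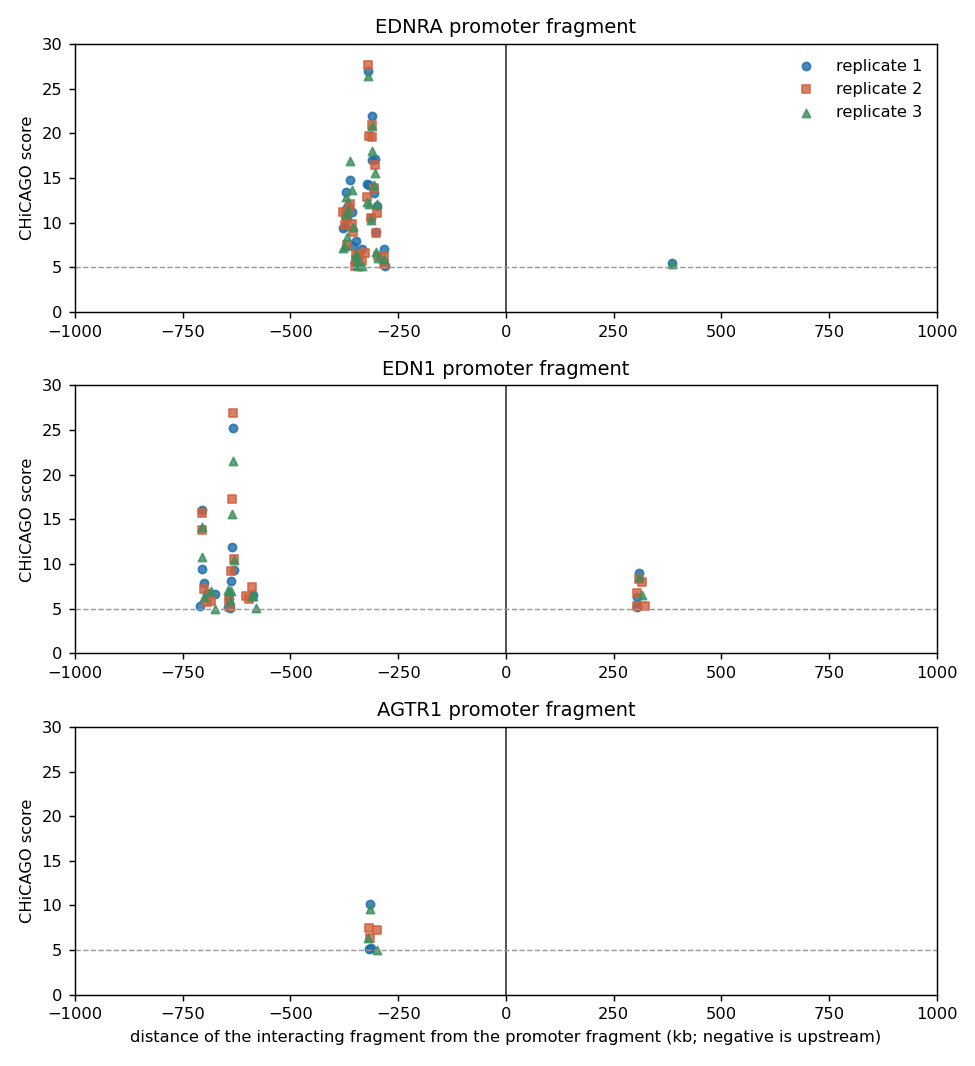
CHiCAGO score (y axis) of each interaction of the *EDNRA*, *EDN1* and *AGTR1* promoter fragments against its distance in kb (x axis, within 1 Mb), with 1 point for each replicate that called it; the vertical line is the promoter and the dashed line the score of 5. *EDNRA* has 1 upstream block with scores up to 27.6, *EDN1* has 3 upstream blocks and 1 downstream, and *AGTR1* has 1 upstream block with scores up to 10.22.

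Annotation placed no protein-coding gene between the block and *EDNRA*, and none in the block. Of the interactions of *EDNRA*, 23.3% ended in a protein-coding gene, as did 12% of those of *EDN1*, against 56.6% over all promoter fragments. The 10 *EDNRA* contacts beyond 1 Mb were each called in 1 replicate and none was called on the merged replicates. They include a fragment with the start of *RAPGEF2* at 12.67 in replicate 3 and 3 fragments inside *SLC10A7*, each in 1 replicate. The promoter fragments of *POU4F2* and *TTC29*, upstream of the block, were not called with that of *EDNRA*.

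The leading *EDNRA* fragment held a match to the CTCF core with 1 mismatch allowed, also on the plus strand, and none without a mismatch. At this tolerance 4.31% of called fragments within 10% of its length had a match. The leading *AGTR1* fragment held no match at this tolerance, where 1.92% of fragments of its length did. The strand of the *EDNRA* match is that of the *EDN1* match found without a mismatch, and both fragments lie upstream of genes on the plus strand. With 1 mismatch allowed the *EDN1* fragment held 2 matches, 1 on each strand, which overlap within the stretch shown for *EDN1*. At that tolerance the strand of the *EDN1* match is therefore not settled. Neither promoter fragment held any match, where 14.8% of fragments of the length of the *EDNRA* promoter fragment and 25.8% for *EDN1* did. The stretch is shown in GRCh37, plus strand, chr4:148082209-148082291, with the match in capitals.
EDNRA contact at -321 kb: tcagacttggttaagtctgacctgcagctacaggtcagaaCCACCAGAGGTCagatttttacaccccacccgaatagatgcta

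The mm172 fragment is shown around its single match to the motif of MEF2, a family of muscle transcription factors, in capitals (GRCh37, plus strand, chr4:148096087-148096176). The matched word reads the same on both strands, and 13.6% of called fragments within 10% of this length held at least 1 match. The mm192 fragment held none, where 20.2% of fragments of its length did. The whole HindIII fragments were searched, 4663 bp for mm172. Where the enhancers lie within them was not examined, so the match may lie outside mm172.
EDNRA contact mm172 at -307 kb: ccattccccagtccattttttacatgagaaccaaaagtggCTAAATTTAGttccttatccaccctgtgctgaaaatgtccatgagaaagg

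The other end of the *EDNRA* contacts is the whole promoter fragment of 2424 bp. Its RefSeq promoter lies letter for letter inside that fragment and held neither AGATAA nor TTATCT (GRCh38, plus strand, chr4:147480847-147481146). No letters are in capitals.
EDNRA promoter: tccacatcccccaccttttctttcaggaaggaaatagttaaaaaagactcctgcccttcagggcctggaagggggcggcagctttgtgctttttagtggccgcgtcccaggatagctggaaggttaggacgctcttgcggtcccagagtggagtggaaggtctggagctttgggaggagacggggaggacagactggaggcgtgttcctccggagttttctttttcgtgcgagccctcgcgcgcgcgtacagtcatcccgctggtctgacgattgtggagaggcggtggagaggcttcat

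The promoter that shared the most fragments with *EDNRA* was that of *TMEM184C*, a gene 138 kb downstream that encodes a transmembrane protein. It shared 12 of the 43 *EDNRA* fragments, or 66.7% of its own 18 (Jaccard index 0.245), and 11 of the 12 lay in the block. In the block *TMEM184C* had 6, 7 and 4 calls in the 3 replicates and 1 contact in all 3, against 28, 29 and 27 calls and 23 contacts for *EDNRA*. The 1 contact in all 3 replicates was with the fragment from 148030520 to 148032037, at 9.73, 6.58 and 9.45, where *EDNRA* scored 13.44, 11.05 and 10.98. The leading *EDNRA* fragment was called with *TMEM184C* in replicate 2 only, at 5.83.

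*EDNRB*, the other endothelin receptor gene, contrasted with *EDNRA*. Its promoter fragment, which holds 6 of its 8 annotated starts and also starts of *OBI1-AS1*, had 1 interaction. This joined it to a fragment on chromosome 5 at a score of 7.87 in replicate 2 only, and no interaction was called on the merged replicates. *EDNRA* exceeded *EDNRB* by 32, 29 and 34 interactions (31.7 ± 2.52, SD, n = 3).

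Of the angiotensin genes, *AGTR1* and *ACE* each had most of their contacts in 1 upstream block, as *EDNRA* had, but few contacts. The block held 71.4% of those of *AGTR1* and 57.1% of those of *ACE*. The *AGTR1* share had an SD of 23.1 points over the 3 replicates. The *AGTR1* promoter fragment on chromosome 3, from 148413140 to 148417483, had 7 interactions, with 3, 3 and 5 in replicates 1, 2 and 3. All 7 were upstream, and 5 lay in a block from -322 to -298 kb within the lncRNA gene *LINC02046*. The fragment from 148099456 to 148099778 scored 10.22, 6.37 and 9.65 (8.75 ± 2.08, SD, n = 3) and was the 1 contact in all 3 replicates. Of all interactions in 3 replicates, 44.7% had as high a mean score. As many interactions as for *AGTR1* were found for 49.9% of all promoter fragments, and as many in all 3 replicates for 51.9%. Without replicate 3 *AGTR1* had 4 interactions. It shared 4 fragments with *CPA3*, a carboxypeptidase gene of mast cells, among the 10 of *CPA3*, and the leading *AGTR1* fragment scored 9.74, 6.96 and 9.71 with *CPA3*.

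*ACE* had 3, 0 and 5 interactions in replicates 1, 2 and 3, 7 in all and none in all 3 replicates, with the largest SD between replicates of any member (2.67 ± 2.52, SD, n = 3). Without replicate 3 *ACE* had 3 interactions. As many as its 7 were found for 49.9% of all promoter fragments. A block of 4 contacts lay between -819 and -805 kb inside *MRC2*, a mannose receptor family gene, and its best fragment, from 60747274 to 60748337 on chromosome 17, scored 5.62 and 7.1 in replicates 1 and 3. Neighbours of *ACE* reached the same region. In this block *DCAF7* shared 4 fragments with *ACE*, and *CYB561* and *TACO1* shared 3 each. The *TACO1* promoter fragment scored up to 12.05 there. Over all 7 *ACE* fragments, inside and outside the block, the shared numbers were 5, 4 and 4. *AGT* has 6 annotated starts, and no fragment that holds one was listed in any replicate or in the merged calls.

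*PHACTR1*, which encodes a phosphatase and actin regulator, is 574 kb long and starts 426 kb downstream of the *EDN1* start. Only 3 of its 26 annotated starts lay in a promoter fragment, which does not hold the annotated 5′ end of the gene and had 3 interactions of 5.14, 6.03 and 5.22 in replicates 1, 2 and 3, each in 1 replicate, over 1 Mb or more and absent from the merged calls. None of the *EDN1* contacts of the replicates ended inside *PHACTR1*, and the nearest stopped 103 kb short of it. On the merged replicates 1 *EDN1* contact inside *PHACTR1* was called, over 610 kb, at a score of 5.09.

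The body of *PHACTR1* was the interacting end of other promoters, which are named here after their values were seen. Of 19 such interactions, 16 belonged to *TBC1D7*, a gene downstream that encodes a subunit of the TSC complex. *TBC1D7* had 6 interactions in all 3 replicates and all 6 ended inside *PHACTR1*, between 182 and 208 kb from its 5′ end, over 405 to 428 kb and with mean scores of 6.02 to 11.2. One of the 6 fragments overlapped a *PHACTR1* exon. None of the 6 was called with *EDN1* in a replicate, and the 1 *EDN1* contact of the merged calls was with the first of them, which scored 8.12, 8.55 and 6.5 with *TBC1D7*. A contact of *NOL7* was the other one in all 3 replicates, at 8.44, 6.37 and 8.54.

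Other genes of these pathways gave a scale for the members. Of 33 listed peptidases, receptors, G protein subunits and regulators, 29 had a promoter fragment and 15 had an interaction in all 3 replicates. At least 1 such interaction was found for 51.9% of all promoter fragments. The 437 interactions of these genes included 112 (25.6%) in all 3 replicates, near the 24.0% of all interactions. A gene had a median of 9 interactions, against 6 for a promoter fragment of the whole data set. By total, *CMA1* and *CTSG*, which encode chymase and cathepsin G and are named after their values were seen, had 43 and 40 interactions, as against 43 for *EDNRA*, but none of theirs was in all 3 replicates. As many contacts in all 3 replicates as *EDN1* were found for 8.29% of all promoter fragments. None of the 33 had as many as *EDNRA*, and 5 had as many as *EDN1* or more. These were *PREP*, a prolyl peptidase gene, with 22, *PLCB4* with 14 and *PLCB2* with 13, which encode phospholipases downstream of the receptors, *RGS2*, a regulator of G protein signalling, with 12, and *PRCP*, which encodes a carboxypeptidase that cleaves angiotensin, with 11. *PLCB2* and *PRCP* were counted over 2 promoter fragments each, against 1 for *EDN1*. *AGTR2*, the other angiotensin II receptor gene, falls outside these 5 and was chosen after its values were seen. It had 1 of 10 in all 3 replicates.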

How the data were processed

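PCHi-C data of hESC-CMs came from 3 biological replicates. The authors mapped reads with HiCUP to GRCh37 and ran CHiCAGO with its default parameters. They deposited a CHiCAGO score for each fragment pair, to 2 decimals and from 5 upwards, for each replicate and for the 3 merged; tool versions are not given in the sources used here. The deposited calls hold no read counts, depth was not analysed here, and the replicates listed 109731 to 112473 calls.

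Calls were joined as unordered fragment pairs over the replicates. Transcript starts came from GENCODE release 44 lifted to GRCh37, and all 102 fragments of member calls ended at GRCh37 HindIII sites (AAGCTT). Distances run between midpoints. Blocks break at gaps over 20 kb. With 1 group no test across features was run, and SDs are over replicates. The counting was tested on simulated calls. RefSeq promoter sequences matched 8 of the 10 genes. Python 3.11.15, scipy 1.17.1, pysam 0.24.0, samtools 1.23.1 and matplotlib 3.10.9 were used.

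For each member the text names up to 3 contacts by mean score, the genes they lie in or skip, up to 3 promoters sharing at least 2 fragments, fragments the study lists with a heart enhancer, and the 5 other pathway genes with the most contacts in all 3 replicates. The members and lists were chosen with earlier results of these data known. Alternatives were scores of at least 7 and 10, each replicate left out, merged calls, ordered pairs, at most 1 Mb, fragments at the gene's annotated 5′ end, matching within 5 kb and block gaps of 10 and 50 kb.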

Additional observations from a re-analysis of the deposited data

How the results depend on the processing

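Raising the lowest score accepted moved the counts most. With scores of at least 7 the members had 42 interactions, 59.5% of them in all 3 replicates, *EDNRA* had 23 and *EDN1* 12. With scores of at least 10 they had 23, 69.6% in all 3, *EDNRA* had 17 and *EDN1* 5, and *EDNRA* exceeded *EDN1* by a mean of 10.3 per replicate. Counting a contact as recurrent where a called fragment lay within 5 kb raised the share in all 3 replicates to 59.6%. Leaving out each replicate gave 77 to 85 interactions, 48.2 to 55.8% of them in both remaining replicates, 36 to 41 for *EDNRA*, 22 to 24 for *EDN1* and a mean difference of 12.5 to 15.5. The share over all interactions was not computed under these settings, so the shares of the members given here have no background beside them. In number of interactions *EDNRA* stayed above *EDN1* under each alternative run. Of the members with few contacts, *EDN3* had 1 without replicate 1, *EDNRB* 0 without replicate 2, and with only fragments at the annotated 5′ end *ECE1* had 3, *EDNRB* 0 and *PHACTR1* 0. On the merged replicates the fullest block held 92.5% of the *EDNRA* contacts and 76.5% of those of *EDN1*. No paired analysis was possible because there is 1 group. The cause of these shifts was not tested. A score near 5 in 1 replicate is at the limit of what these lists hold.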

Other observations

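For the promoter fragments of the replicates, the calls on the merged replicates added 22 contacts that no single replicate listed. These were 9 for *EDN1*, 7 for *EDNRA*, 5 for *ECE1* and 1 for *AGTR1*, with scores of 5.04 to 7.99. The merged contact of *EDN2*, at 5.12, is not among them, since *EDN2* had no promoter fragment in the replicates. For *EDN1*, 4 of the 9 lay between its upstream blocks, at -659, -656, -625 and -605 kb, with scores of 6.08, 5.58, 6.77 and 5.85. For *EDNRA*, the highest of the 7, at 7.99, lay 106 kb downstream in the lncRNA gene *LINC02507*, on the side of the promoter where the replicates listed 4 contacts.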
